A study of Mus musculus with 21 samples.

Results

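The expression of 8 genes that mark regulatory T cells was followed: Foxp3, Il2ra, Ikzf2, Ctla4, Tnfrsf4, Tnfrsf18, Icos and Capg. They were chosen by name, and all 8 had a row among the 12994 genes of the table. The RNA came from T cells of 21 spleen samples of female C57BL6/J mice. They were housed for 4 weeks from 4 weeks of age in either an enriched environment (EE) or a standard environment (SE). Sorting kept CD45+ CD11b- CD3+ cells that were CD4+ or CD8+, so every CD4+ sample is a mixture of conventional and regulatory cells. There were 6 EE and 5 SE CD4+ samples and 6 EE and 4 SE CD8+ samples, and 9 mice (6 EE and 3 SE) gave both populations. The labels name no treatment and no engineered allele in any group. According to the labels, the mice analysed from each environment came from a single cage. An effect of the cage cannot be told apart from that of the environment, and p-values measure the spread between mice within a cage. The number of sorted cells is not given in the sources used here.

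Regulatory T cells are the CD4+ cells that restrain other lymphocytes, and the transcription factor FOXP3 defines them. They carry the high-affinity receptor for interleukin-2, a cytokine on which they depend and which conventional T cells secrete after activation. They hold antigen-presenting cells in check through CTLA-4, which strips co-stimulatory ligands from the surface of these cells. Most of the other genes are shared with activated conventional cells: OX40 (Tnfrsf4), GITR (Tnfrsf18) and ICOS are co-stimulatory receptors, and CapG (Capg) caps actin filaments and is also abundant in macrophages. Helios, encoded by Ikzf2, is a zinc-finger factor found mostly in regulatory cells that arose in the thymus.

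In the GRCm38 mouse genome (GENCODE M21) all 8 genes are protein coding. Foxp3 (ENSMUSG00000039521) spans chrX:7573644-7595245 on the plus strand, and Il2ra (ENSMUSG00000026770) spans chr2:11642807-11693193 on the plus strand. Ctla4 (ENSMUSG00000026011, chr1:60887000-60915832) and Icos (ENSMUSG00000026009, chr1:60977927-61000320) lie on the plus strand 62.09 kb apart with 0 coding genes between them. Tnfrsf4 (ENSMUSG00000029075, chr4:156013843-156016612) and Tnfrsf18 (ENSMUSG00000041954, chr4:156026164-156028895) are also plus-strand neighbours, separated by 9.551 kb with 0 coding genes in the gap. Ikzf2 (ENSMUSG00000025997) is on the minus strand at chr1:69531214-69687245, and Capg (ENSMUSG00000056737) is on the plus strand at chr6:72544391-72562983. Of these genes, 3 overlap another gene that also had a row in the table, Ppp1r3f on the opposite strand for Foxp3, and the same-strand pseudogene or predicted gene Rpl18-ps1 for Ctla4 and Gm37039 for Icos. Reads in those overlaps are uncertain in origin.

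The sequences just upstream of Foxp3 and Ctla4, the pair whose levels moved together most closely across CD4+ samples, and of Capg, which had the lowest p between environments, are shown because the promoter of a gene lies around its transcription start. They come from the RefSeq transcript starts on GRCm38.p6, which gave windows for 6 of the 8 genes (none for Ikzf2 or Icos). Each is printed 5′ to 3′ on the plus strand, and stretches that GENCODE places in an exon are left out, which leaves 141 bases at chrX:7579426-7579566 for the first of 2 Foxp3 windows (the second, at chrX:7580233-7580482, lies outside exons and is not printed), 250 bases at chr1:60908775-60909024 for Ctla4 and 145 bases at chr6:72549502-72549646 for Capg. All of these stretches lie inside the GENCODE span of their gene, upstream of a later transcript start. Capitals mark GGAAA, the core read by the calcium-dependent NFAT factors, here written TTTCC because the match is on the other strand.
Foxp3: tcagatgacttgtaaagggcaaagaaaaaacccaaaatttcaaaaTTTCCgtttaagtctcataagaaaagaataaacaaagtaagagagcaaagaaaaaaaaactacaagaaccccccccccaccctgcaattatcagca
Ctla4: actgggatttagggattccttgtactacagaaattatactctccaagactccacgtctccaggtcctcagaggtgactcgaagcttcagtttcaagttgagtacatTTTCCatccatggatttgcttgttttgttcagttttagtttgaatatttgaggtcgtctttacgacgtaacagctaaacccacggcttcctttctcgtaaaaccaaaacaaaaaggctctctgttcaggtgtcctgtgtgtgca
Capg: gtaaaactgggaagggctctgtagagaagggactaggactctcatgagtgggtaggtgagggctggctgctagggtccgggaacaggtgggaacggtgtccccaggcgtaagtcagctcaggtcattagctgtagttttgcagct

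A set of 4 motifs was searched on both strands of the 250 bases before each start. GGAAA was found in the windows of 5 of the 6 genes (Foxp3, Il2ra, Ctla4, Tnfrsf4 and Tnfrsf18, but not Capg), and it occurs in 55.6% of the 32851 mouse windows of this length. TATAAA, the TATA box, was found only in the first of the 2 Foxp3 windows, 32 to 27 bases before the start in a stretch that GENCODE places in an exon, and occurs in 12.4% of all windows. Neither the forkhead motif GTAAACA (3.17% of all windows) nor the AP-1 motif TGANTCA (6.75%) matched in any of the 7 windows of the 6 genes. The motifs do not overlap each other at the positions found.

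The values are normalised counts: numbers of distinct mRNA molecules, read from unique molecular identifiers (UMIs), divided by a size factor per sample. Each sample held 145546 to 221454 molecules in all. The 8 genes are scarce within that depth, since together they gave 43 to 130 molecules in a CD4+ sample and 26 to 41 in a CD8+ sample. A library with 0 molecules of a gene allows up to 3, and this limit, like the intervals on counts below, covers counting error only. The lineage genes followed the sort, with Cd4 at 58.4 ± 12.0 (SD, n = 11) in CD4+ and 0.374 ± 0.484 (n = 10) in CD8+ samples, and Cd8a at 0.784 ± 1.06 and 98.4 ± 14.5. Cd8b1 was at 3.62 ± 2.27 and 205 ± 20.3, with 1 to 10 molecules in each of the 11 CD4+ samples. Cd8a was also found in 5 of them, those of EE mice 5 and 6 and SE mice 1, 4 and 5. The methods of the study exclude CD4+ samples in which both CD8 genes are above 0, but these 5 were kept here. SE mice 1 and 4, with the most Foxp3 and Ctla4, are among them. The 10 B-cell genes of a marker list summed to 40 to 541 molecules in CD4+ samples (median 276) and 36 to 136 in CD8+ samples (median 49.5), and 6 of the 8 tested were higher in CD4+ samples, with Ms4a1 at 0 in every CD8+ sample. Among the CD8+ samples, those of EE mouse 6 and SE mouse 3 carried haemoglobin transcripts (673 and 1164 molecules, against 0 to 24 in every other sample).

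**Figure D1:**
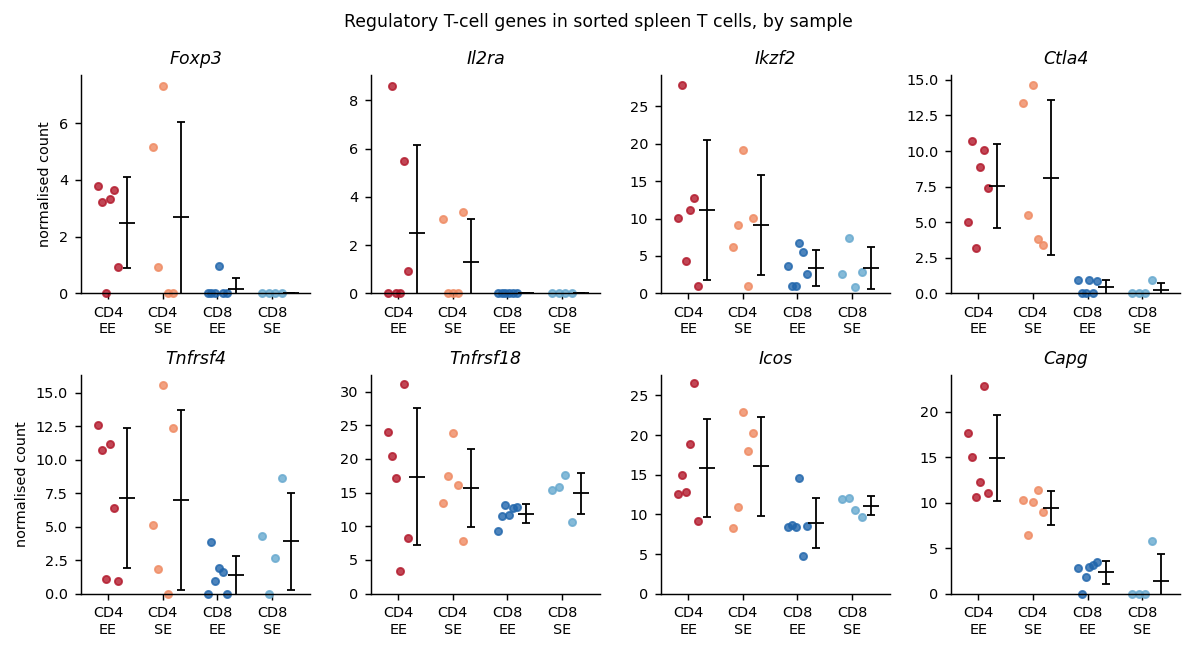
Normalised count (y axis, linear, one scale per panel) of each of the 8 regulatory T-cell genes in every sample, by group (x axis); each point is a sample and the bars are the mean and SD of the 6, 5, 6 and 4 samples, cut at 0. Every CD4+ sample lies above every CD8+ sample for Ctla4 and Capg, whereas the Tnfrsf18 groups lie over a shared range.

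The first question was whether these genes mark the CD4+ population. Ctla4 and Capg were higher in CD4+ than in CD8+ samples, with no overlap between the populations. Foxp3 and Il2ra were nearly confined to CD4+ samples (1 and 0 molecules in the 10 CD8+ samples), at very low counts. Ikzf2, Tnfrsf4 and Icos had higher means in CD4+ samples but overlapped with CD8+ samples, and Tnfrsf18 was about as abundant in both populations.

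Foxp3 gave 28 molecules in all in the CD4+ samples. Its counts were 3, 3, 0, 3, 4 and 1 molecules in EE mice 1 to 6 and 5, 1, 8, 0 and 0 molecules in SE mice 1, 3, 4, 5 and 6. In CD8+ samples there was 1 molecule, in EE mouse 4. The CD4+ samples thus ranged from no detection in 3 mice to 8 molecules in SE mouse 4, and 6 of the 11 exceeded every CD8+ sample. The normalised means were 2.57 ± 2.41 (n = 11) in CD4+ and 0.0971 ± 0.307 (n = 10) in CD8+ samples. From the molecules this is a ratio of 28.5, with a 95% counting interval of 4.72 to 1167 that spans orders of magnitude. Because its mean over all samples was below 2, Foxp3 was not among the 7938 genes of the principal test. In the limma fit without that filter, in which 421 of 12990 genes (3.24%) had an adjusted p below 0.05, its log2 difference was 1.38 (SE 0.35, Benjamini-Hochberg adjusted p 0.00751). The adjusted p was 0.000417 with edgeR and 0.0105 with DESeq2.

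Il2ra encodes the alpha chain (CD25) that gives the interleukin-2 receptor its high affinity. EE mice 1 to 6 had 0, 8, 0, 0, 6 and 1 molecules in CD4+ samples, and SE mice 1, 3, 4, 5 and 6 had 3, 0, 0, 0 and 3. It was detected in 5 of 11 CD4+ samples and in none of the 10 CD8+ samples. Against a floor of 3 molecules over the whole CD8+ group, the CD4+ samples were at least 7.14-fold higher, a bound that leaves out the counting error of the CD4+ molecules. The 95% counting interval of the ratio began at 5.31. The test was tool dependent: the adjusted p in the limma fit without the filter was 0.0633 (log2 difference 0.99, SE 0.32), against 0.00146 with edgeR and 0.668 with DESeq2. The limma value fell to between 0.0286 and 0.0438 when any of 6 CD4+ samples without the gene was left out. SE mouse 4, with the most Foxp3 (8 molecules), had none of Il2ra.

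Ctla4 was found in every CD4+ sample. EE mice 1 to 6 had 4, 10, 3, 8, 11 and 8 molecules, and SE mice 1, 3, 4, 5 and 6 had 13, 6, 16, 4 and 3. The 10 CD8+ samples had 0 or 1 molecule each, 4 in all. The lowest CD4+ sample (EE mouse 3, normalised count 3.21) stood above the highest CD8+ sample (0.971). The CD4+ mean of 7.82 ± 4.03 (n = 11) was 21.9-fold the CD8+ mean by molecules (95% counting interval 8.3 to 82.3), and the log2 difference was 2.64 (SE 0.35, limma adjusted p 4.78e-08).

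Capg showed the same separation. EE mice 1 to 6 had 14, 14, 10, 11, 25 and 12 molecules in CD4+ samples, and SE mice 1, 3, 4, 5 and 6 had 10, 7, 11, 12 and 8. In CD8+ samples EE mice 1 to 6 had 3, 0, 2, 3, 4 and 4 molecules, and SE mice 1, 2, 3 and 6 had 0, 0, 0 and 6. The populations did not overlap, although the gap between the lowest CD4+ sample (6.41) and the highest CD8+ sample (5.77) was narrow. The means were 12.4 ± 4.55 (n = 11) and 1.99 ± 1.97 (n = 10), a ratio of 6.21 (95% counting interval 3.94 to 10.2), with a log2 difference of 2.51 (SE 0.32, limma adjusted p 1.81e-08).

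Ikzf2 varied widely between mice. CD4+ samples held 8, 26, 4, 10, 14 and 1 molecules in EE mice 1 to 6 and 6, 10, 21, 1 and 9 molecules in SE mice 1, 3, 4, 5 and 6. CD8+ samples held 4, 1, 1, 7, 7 and 3 molecules in EE mice 1 to 6 and 3, 8, 1 and 3 molecules in SE mice 1, 2, 3 and 6. In all, 7 CD4+ samples exceeded every CD8+ sample, while EE mouse 6 and SE mouse 5 were at the bottom of the CD8+ range. The mean was 2.95-fold higher in CD4+ samples by molecules (95% counting interval 2.02 to 4.39), and the limma test did not pass (log2 difference 1.14, SE 0.37, adjusted p 0.0661). The adjusted p was 0.0490 in the fit without the filter, 0.00710 with edgeR and 0.0854 with DESeq2, and over the 26 other alternatives of the limma fit it ranged from 0.00981 to 0.214. It was below 0.05 in 5 of these, which left out the CD4+ sample of EE mouse 3, EE mouse 6 or SE mouse 5, or the CD8+ sample of EE mouse 4 or SE mouse 2.

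Tnfrsf4, the gene of OX40, had 10, 10, 1, 10, 7 and 1 molecules in CD4+ samples of EE mice 1 to 6 and 5, 2, 17, 0 and 11 in those of SE mice 1, 3, 4, 5 and 6. The CD8+ samples had 0 to 9 molecules (0, 4, 1, 2, 2 and 0 in EE mice 1 to 6, and 5, 0, 3 and 9 in SE mice 1, 2, 3 and 6), so that 5 of 11 CD4+ samples lay above them all. The ratio was 2.90 (95% counting interval 1.83 to 4.73), with a log2 difference of 1.05 (SE 0.43, limma adjusted p 0.197, or 0.0481 without the CD4+ sample of SE mouse 5; edgeR 0.0437, DESeq2 0.262). Its neighbour Tnfrsf18, the gene of GITR, ranged from 3 to 34 molecules in CD4+ samples (median normalised count 17.1) and from 10 to 20 in CD8+ samples (12.8). The spread was wider among CD4+ samples (SD 8.13 against 2.56), the means were 16.6 and 13.1, and the log2 difference of 0.14 (95% interval -0.33 to 0.60, adjusted p 0.852) did not pass. Icos, a co-stimulatory receptor also carried by follicular helper cells, had 8 to 29 molecules in CD4+ samples (median normalised count 15.0) and 6 to 15 in CD8+ samples (9.15). Of the CD4+ samples, 6 lay above all CD8+ samples, and the log2 difference of 0.58 (95% interval 0.16 to 1.01) had an adjusted p of 0.126 (0.0490 without the CD4+ sample of SE mouse 1).

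In this comparison limma called 349 of 7938 genes (4.4%), of which 185 were higher in CD4+ samples (2.33% of those tested), and 2 of the 6 tested members, Ctla4 and Capg, were among them. All 6 tested members had a positive log2 difference, with a median of 1.09 against -0.01 over all tested genes. This is given as a description. The filter was a mean above 2 over all samples, which Ctla4 and Capg reached through their CD4+ samples (CD8+ means 0.372 and 1.99). For such genes a positive sign is tied to passing the filter. Every CD4+ sample stood above every CD8+ sample for 27 of the 7938 genes (0.34%), again including Ctla4 and Capg. On the recovered molecules edgeR called 365 genes and 4 of the 6 tested members, adding Ikzf2 and Tnfrsf4. The 2 members below the filter, Foxp3 and Il2ra, are described above from the fit without it. In bulk samples, more cells of a type and more RNA per cell cannot be told apart.

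**Figure D2:**
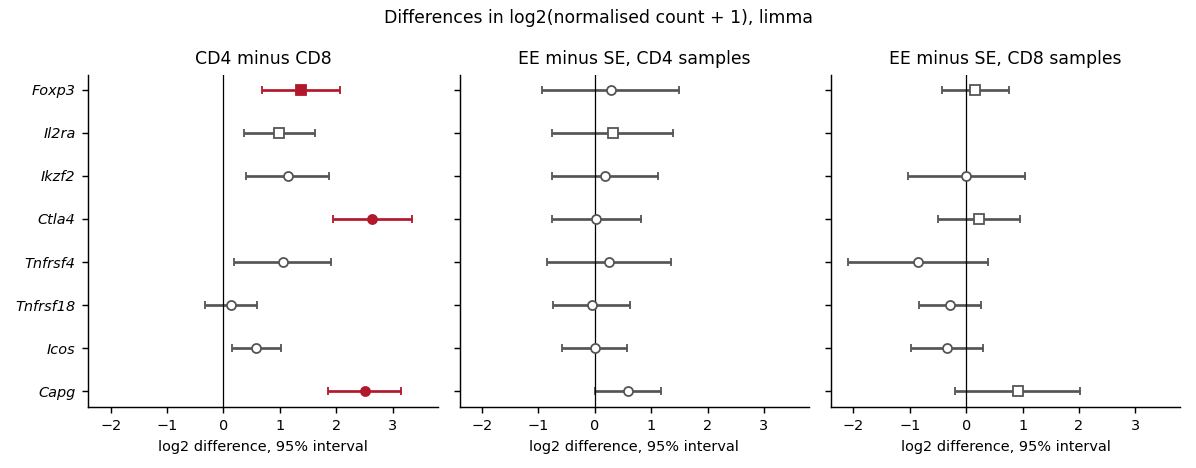
Log2 difference of each gene with its 95% interval (x axis) for CD4+ minus CD8+ and for EE minus SE within each population; circles are genes with a mean above 2, squares are genes below that filter taken from the fit without it, and filled red symbols have an adjusted p below 0.05. Ctla4 (2.64), Capg (2.51) and, without the filter, Foxp3 (1.38) are filled in the comparison of populations, and none is filled for the environments.

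The 9 mice that gave both populations allowed the same comparison within each animal. Ctla4 and Capg were higher in the CD4+ sample of 9 of 9 mice, by 2.55 and 2.33 log2 units on average (exact two-sided sign permutation test, p = 0.00391 each, the smallest possible). Foxp3 was higher in 7 mice and equal (0 in both samples) in the other 2 (mean difference 1.35, exact p = 0.0156). Ikzf2 and Tnfrsf4 were higher in 8 of 9 mice, by 1.37 (exact p = 0.0117) and 1.11 (exact p = 0.0195). Il2ra was higher in 5 mice and 0 in both samples of 4 (1.23, exact p = 0.0625). Icos was higher in 8 of 9 mice by 0.56 (exact p = 0.0312, but 0.0625 when any of EE mice 1, 2, 3 and 5 or SE mouse 6 was left out), and Tnfrsf18 was higher in 4 and lower in 5 (0.10, exact p = 0.746). These p-values were not adjusted for the 8 genes.

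B-cell transcripts moved with the population. The CD4+ sample of SE mouse 1, whose 40 B-cell molecules lay within the CD8+ range, had 5 molecules of Foxp3, 13 of Ctla4 and 10 of Capg. SE mouse 3, with the most B-cell molecules (541), had 1, 6 and 7. Il2ra and Tnfrsf4 were also higher in SE mouse 1 (3 and 5 molecules, against 0 and 2 in SE mouse 3). Ikzf2, Tnfrsf18 and Icos were lower in SE mouse 1 (6, 13 and 8, against 10, 19 and 12). The 5 genes of a myeloid list that were in the table summed to 12 to 51 molecules in EE and 12 to 68 in SE CD4+ samples, and to 15 to 44 in EE and 18 to 49 in SE CD8+ samples. All 5 were detected in EE CD4+ samples, 3 in SE CD4+ samples (Lyz2 and Csf1r at 0), 2 in EE CD8+ samples (Lyz2, Csf1r and Fcer1g at 0) and 4 in SE CD8+ samples (Fcer1g at 0). Lyz2 had 5 molecules in EE CD4+ and 21 in SE CD8+ samples. The part of these cells in the differences was not tested. Klrd1, the 1 natural killer cell gene tested, was lower in CD4+ samples. Without the 2 haemoglobin-rich CD8+ samples, an alternative chosen after seeing the data, 297 genes were called and again 2 of the 6 tested members.

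Housing was compared next. The study asks whether CD4+ T cells, mainly those of the choroid plexus, differ between EE and SE, and does not single out regulatory cells. In CD4+ samples none of the 8 genes differed between EE and SE after adjustment, and for 7 of them the difference in means was smaller than the SD within either environment. The exception was Capg, whose mean was higher in EE by a margin that passed only an unadjusted test. Foxp3 itself was 2.49 ± 1.61 (n = 6) in EE and 2.68 ± 3.36 (n = 5) in SE, and each environment gave 14 molecules (95% exact Poisson interval 7.65 to 23.5). The SE samples held both extremes, SE mice 1 and 4 above every EE sample and SE mice 5 and 6 at 0. The SD expected from counting alone was 1.62 in EE, close to the SD observed, and 1.63 in SE, where the SD observed was 2.07 times as large. The log2 difference was 0.28 with an interval of -0.94 to 1.50 (limma adjusted p 0.967), of opposite sign to the difference in mean levels (-0.19, exact permutation p = 0.874).

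As a reading of the regulatory share, Foxp3 was set against Cd4 in the same library, which removes the size factor. There were 3.86 ± 2.64 molecules of Foxp3 per 100 of Cd4 in EE (lowest 0, median 4.1, highest 6.67) and 5.28 ± 6.87 in SE (0, 1.56 and 15.4). The groups overlapped over the whole EE range, with the 15.4 from SE mouse 4, and the difference of -1.42 had an exact permutation p of 0.680 over 462 assignments (smallest possible 0.00216). Without SE mouse 4 the difference was 1.11, the opposite sign. Set against Cd3e, a subunit of the T-cell receptor complex, or against all molecules of the sample, Foxp3 gave exact permutation p-values of 0.861 and 0.874. The difference in Foxp3 was thus within the spread between samples on each of these scales.

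Capg was 14.9 ± 4.70 (n = 6) in EE and 9.43 ± 1.89 (n = 5) in SE CD4+ samples. Of the 6 EE samples, 4 exceeded every SE sample, and EE mice 3 and 6 overlapped with SE mouse 5, the highest of its group. The difference of 5.49 had an exact two-sided permutation p of 0.0130, the lowest among the members, and between 0.00952 and 0.0286 when each mouse was left out in turn (0.0286 without SE mouse 1, whose B-cell count stood apart). On the log2 scale the difference was 0.58 (SE 0.29, 95% interval -0.01 to 1.17, limma p 0.0523, adjusted p 0.835), and the unadjusted edgeR p was 0.0429 (adjusted p 0.918). The value did not pass adjustment over all genes with any tool. Among the same CD4+ samples 36 of 7939 genes (0.453%) had EE and SE samples that did not overlap, and none of the members was among them.

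The other 6 genes did not separate EE from SE. Ikzf2 was 11.2 ± 9.34 in EE and 9.12 ± 6.67 in SE, Ctla4 was 7.55 ± 2.95 and 8.14 ± 5.43, and Il2ra was 2.50 ± 3.66 and 1.29 ± 1.77. Each environment thus spanned the mean of the other. For Il2ra the means came from 15 and 6 molecules in 5 samples with any, and edgeR gave a log2 difference of 1.00 (adjusted p 0.889). Tnfrsf4 was 7.14 ± 5.19 in EE and 6.98 ± 6.73 in SE, Tnfrsf18 was 17.4 ± 10.2 and 15.7 ± 5.80, and Icos was 15.9 ± 6.13 and 16.1 ± 6.22. Their exact permutation p-values lay between 0.632 and 0.957. By limma none of the 7 tested members was called (0 with p below 0.05), where 1 of 7939 genes was (0.0126%), the calcium-binding protein gene S100a6, and 462 had an unadjusted p below 0.05. EdgeR called 2 genes and DESeq2 1, and neither called a member.

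In CD8+ samples, where few regulatory cells are known, 4 of the 8 genes (Ikzf2, Tnfrsf4, Tnfrsf18 and Icos) passed the filter and none was called. No gene of the 7840 tested was called by limma (0%, 413 with an unadjusted p below 0.05) or by edgeR or DESeq2. Tnfrsf18 was 11.9 ± 1.42 (n = 6) in EE and 14.9 ± 3.03 (n = 4) in SE, with EE samples from 9.30 to 13.2 and SE samples from 10.6 to 17.7 (exact permutation p = 0.0667, smallest possible 0.00476). Its p ran from 0.0238 (without SE mouse 6) to 0.167 when each sample was left out. Tnfrsf4 was 1.39 ± 1.45 and 3.90 ± 3.63 (exact permutation p = 0.181). Its difference of -2.51 became -3.81 without SE mouse 2 (exact p 0.0476) and -0.923 without SE mouse 6 (exact p 0.452). Icos was 8.90 ± 3.16 and 11.1 ± 1.19 (p = 0.238 by the exact permutation test), and its difference of -2.17 became -3.30 without EE mouse 4 (exact p 0.0159) and -1.34 without EE mouse 5 (exact p 0.397). All 3 were lower on average in EE, and each exact p moved with the removal of 1 mouse. Ikzf2 was level, at 3.42 ± 2.4 and 3.45 ± 2.81. Capg, below the filter, was higher on average in EE (2.36 ± 1.27 against 1.44 ± 2.88, exact permutation p = 0.524). Its difference of 0.92 became 2.36 without SE mouse 6 (exact p 0.0952). Over both populations 15 such exact tests were made, with no adjustment. Without the 2 haemoglobin-rich samples limma again called none of the members, and its log2 differences for Tnfrsf18, Tnfrsf4 and Icos went from -0.29, -0.86 and -0.34 to -0.23, -0.66 and -0.36.

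The difference between the EE effect in CD4+ and in CD8+ samples was tested as an interaction. None of the 6 tested members passed, with log2 values from -0.33 (Capg) to 1.11 (Tnfrsf4) and a lowest unadjusted p of 0.204 (limma adjusted p 0.994). No gene of the 7938 tested passed (0%) by limma, edgeR or DESeq2, and 393 had an unadjusted limma p below 0.05.

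By mean level the 4 groups ranked with both CD4+ groups first for all 8 genes. SE stood above EE among CD4+ groups for Foxp3, Ctla4 and Icos, and EE above SE for the other 5, and no neighbouring pair of environments differed beyond its spread after adjustment. Among the CD8+ groups SE stood above EE for Ikzf2, Tnfrsf4, Tnfrsf18 and Icos, and EE above SE for Foxp3, Ctla4 and Capg.

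**Figure D3:**
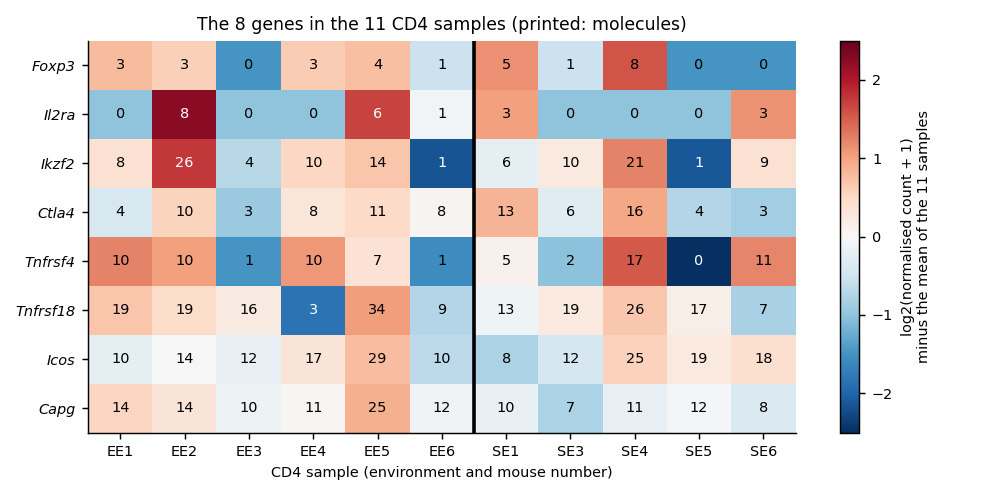
Log2(normalised count + 1) of the 8 genes (rows), in the 11 CD4+ samples (columns, EE left of the line and SE right), coloured after subtracting the mean of each gene over those samples, with the molecules counted written in each cell. The samples of EE mice 2 and 5 and SE mouse 4 have high values in most rows, whereas EE mouse 3, EE mouse 6 and SE mouse 5 are low in Foxp3, Ikzf2 and Tnfrsf4.

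In CD4+ samples the members did not rank the mice by environment. Their summed molecules ran from 43 to 130 in EE (median 65) and from 53 to 124 in SE (median 59) among CD4+ samples. The highest sums were those of EE mouse 5 (130), SE mouse 4 (124) and EE mouse 2 (104), and the lowest were those of EE mouse 6 (43) and EE mouse 3 (46). In CD8+ samples the sums ran from 26 to 41 in EE (median 30) and from 36 to 40 in SE (median 39). There 5 of 6 EE samples, at 26 to 35, lay below every SE sample, and EE mouse 4, at 41, lay above them all; this difference was not tested.

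Between mice, Ctla4 followed Foxp3. Across the 11 CD4+ samples, on log2 values with each environment's mean removed, Pearson's r was 0.897 (permutation p = 0.00531) and Spearman's rho 0.825 (p = 0.0123, permutation). Mice with 0 or 1 molecule of Foxp3 had 3 to 8 of Ctla4, and the 2 mice with most Foxp3 (SE mice 4 and 1) had the most Ctla4 (16 and 13). Without the 2 samples farthest from the median of Foxp3 (SE mouse 4 and EE mouse 3) r was 0.791. For 7938 genes ranked by r with Foxp3, Ctla4 was 3rd, so 0.0252% of genes were higher, and the median r was 0.01. When all those genes were fitted on Foxp3 with limma, the slope of Ctla4 had an adjusted p of 0.697, and 0 genes passed while 413 had an unadjusted p below 0.05.

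Tnfrsf4 and Ikzf2 came next. Tnfrsf4 had r = 0.659 (permutation p = 0.0577) and rho = 0.551 (permutation p = 0.131), and ranked 150th, with 1.88% of genes higher. Ikzf2 had r = 0.599 (permutation p = 0.0605) and rho = 0.437 (permutation p = 0.194), with 3.2% of genes higher. Both adjusted p-values over all genes were 0.662, and r was 0.426 and 0.465 without those 2 samples. Capg had r = 0.419 (permutation p = 0.193), Tnfrsf18 0.246 (permutation p = 0.422) and Il2ra 0.169 (permutation p = 0.615), with rho of 0.519, 0.387 and 0.0650. Icos had r = 0.0893 (permutation p = 0.802) and rho = 0.0729 (permutation p = 0.844), and -0.32 without the 2 samples. In all, 7 relations with Foxp3 were computed. The points share a library and its size factor, and Foxp3 takes few distinct values at 0 to 8 molecules.

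**Figure D4:**
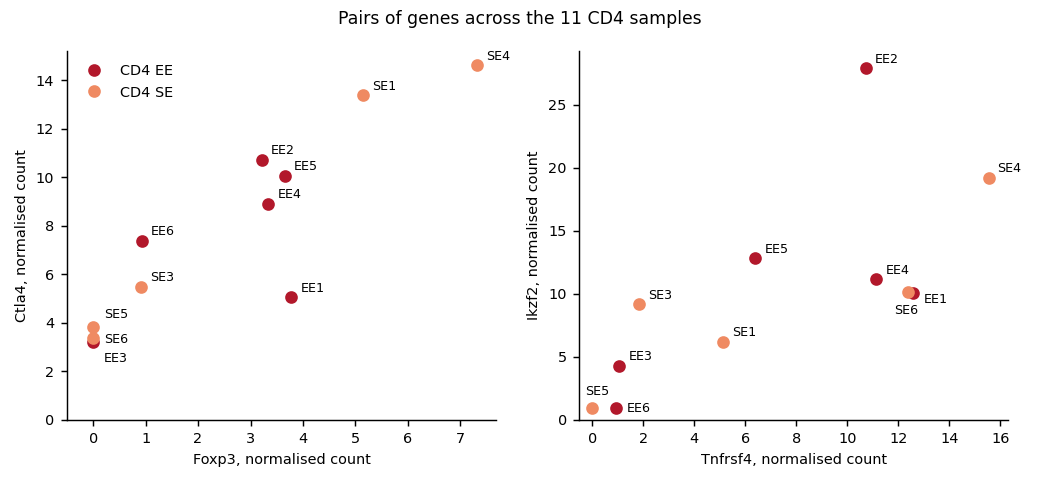
Normalised counts of Ctla4 against Foxp3 (left) and of Ikzf2 against Tnfrsf4 (right) in the 11 CD4+ samples, each point labelled by environment and mouse (EE dark red, SE orange). Ctla4 goes from 3 molecules in EE mouse 3 and SE mouse 6 to 16 in SE mouse 4 along the Foxp3 axis, and EE mouse 2 has the most Ikzf2.

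Among all 28 pairs of members r was above 0, with a median of 0.328, given as a description. Ikzf2 and Tnfrsf4 had r = 0.855, low together in EE mice 3 and 6 and SE mouse 5 and high together in EE mouse 2 and SE mouse 4. The neighbouring genes did not go together: r was 0.00221 for Tnfrsf4 and Tnfrsf18 and 0.0519 for Ctla4 and Icos. EE mouse 5, with the most Tnfrsf18, Icos and Capg (34, 29 and 25 molecules), had 4 molecules of Foxp3.

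Other genes were compared with the mean of the members after centring each gene. Over all 21 samples the 5 most alike of 2725 genes were Il6ra (r = 0.851), Ly6c1 (0.830), Prr13 (0.823), Cd4 (0.815) and Actb (0.813), all of them higher on average in CD4+ samples. Within the 11 CD4+ samples, with environment means removed, they were Sh2d1a (0.919), Sirt7 (0.883), Wdr61 (0.878), Gm12715 (0.814) and Supt20 (0.798) of 2735 genes. These 2 lists share no gene.

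Other genes of regulatory cells, from a list of 25 symbols, were read alongside. Folr4 on that list is the older symbol of Izumo1r, also on it. Of the symbols, 20 were in the table and 9 passed the filter, of which 4 rose in CD4+ against CD8+ samples and 1 fell by limma, with a median log2 difference of 0.71. Izumo1r, the folate receptor 4 found on regulatory and other CD4+ cells, was 40.6 ± 13.5 in CD4+ and 7.06 ± 5.35 in CD8+ samples (log2 difference 2.55, adjusted p 6.31e-12). Nrp1, which encodes neuropilin-1, had 2 to 10 molecules in CD4+ samples and 0 to 2 in CD8+ samples (2.18, adjusted p 1.29e-05). Tigit, an inhibitory receptor, had 0 to 11 and 0 to 1 (1.73, adjusted p 0.00431), which by molecules is 24.0-fold with a 95% counting interval of 6.27 to 203.6. Lrrc32, whose product GARP anchors latent TGF-beta on regulatory cells, had 0 to 19 molecules in CD4+ samples and 0 in every CD8+ sample, at least 21.4-fold higher by the same kind of bound, against a floor of 3 molecules over the group (adjusted p 0.000952). Itgae, the gene of CD103, ran the other way with 0.382 ± 0.538 in CD4+ and 13.1 ± 5.75 in CD8+ samples (-3.38, adjusted p 2.70e-12), and is also a gene of CD8+ cells in tissues. The other 11 were below the filter. In the limma fit without it, Swap70 (29 molecules in CD4+ and 1 in CD8+ samples, adjusted p 0.000567) and Lag3 (26 and 2, adjusted p 0.0274) were higher in CD4+ samples, and the other 9 did not pass. Among those 9, Gpr83 had 13 and 7 molecules, Ikzf4 had 9 and 8, and Itgb8 had 1 and 3. Klrg1 had 24 and 3, Socs2 had 11 and 0, and Ccr8 had 10 and 0. Entpd1 had 4 and 0, and Prdm1 and Penk each had 5 and 2. All of the 9 but Itgb8 thus had more molecules in CD4+ samples. Between EE and SE none of the 11 tested in CD4+ samples was called or had an unadjusted p below 0.05, and the lowest p was that of Lag3 (3.07 ± 2.44 against 1.66 ± 2.77, log2 difference 0.86, adjusted p 0.886). Among the 9 below the filter, Gpr83, a receptor gene of regulatory cells, had 2 molecules in EE and 11 in SE (log2 difference -1.12, p 0.0223 and adjusted p 0.880 in the limma fit without the filter).

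Of the other genes of the interleukin-2 receptor and its signalling, a list without Il2ra, 0 of 9 tested were called between populations and 2 had an unadjusted p below 0.05. Il2rb, the beta chain shared with interleukin-15, was 7.87 ± 4.02 in CD4+ and 12.6 ± 3.75 in CD8+ samples (log2 difference -0.71, adjusted p 0.0968). Cish, a feedback inhibitor induced by STAT5, was 3.10 ± 2.11 and 0.834 ± 1.04 (1.06, adjusted p 0.129). In CD4+ samples Il2rb was 9.84 ± 3.77 in EE and 5.51 ± 3.15 in SE (0.86, unadjusted limma p 0.0329, adjusted p 0.823). Socs1, another inhibitor of cytokine signalling, was 9.03 ± 5.74 and 13.1 ± 4.08 (-0.59, unadjusted limma p 0.0807, adjusted p 0.855).

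Of 17 tested partners and regulators of Foxp3, Runx1 rose in CD4+ samples (12.8 ± 4.62 against 5.45 ± 2.55, log2 difference 1.11, adjusted p 0.00291) and Runx3 fell (6.07 ± 2.84 against 21.7 ± 7.02, -1.72, adjusted p 7.24e-08). RUNX3 is known as a factor of the CD8+ lineage. None of the 15 tested between environments in CD4+ samples was called, and 1, Usp7, a deubiquitinase that stabilises FOXP3, had an unadjusted p below 0.05 (11.7 ± 1.57 in EE, 7.72 ± 4.28 in SE, adjusted p 0.835).

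Since most members are shared with activated cells, genes of antigen-experienced, follicular helper and conventional T cells were read as well. Among genes of antigen-experienced cells, 6 of 11 tested rose in CD4+ against CD8+ samples (S100a6, Itgb1, Lgals1, S100a4, Anxa2 and Cd44) and none fell, with a median log2 difference of 0.99. Cd44, the adhesion receptor used to tell memory from naive cells, was 8.34 ± 4.00 in CD4+ and 2.22 ± 1.13 in CD8+ samples (1.49, adjusted p 0.000851). In the same list S100a6 rose in EE against SE CD4+ samples (39.5 ± 20.9 against 13.3 ± 5.77, 1.46, limma adjusted p 0.0178), and 5 of the 11 had an unadjusted p below 0.05, all higher in EE, S100a10 among them (120.4 ± 39.7 against 71.2 ± 15.4, adjusted p 0.481). The S100a6 call was lost without any of 5 CD4+ samples (EE mice 2, 4 and 5 and SE mice 1 and 5).

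Of the follicular helper genes, 1 of 3 tested rose in CD4+ samples, the transcription factor gene Maf (10.4 ± 6.73 against 0.268 ± 0.432, log2 difference 2.98, adjusted p 2.48e-09), and 0 of 5 differed between environments. The count of 3 leaves out Cxcr5, Pdcd1, Tox2 and Bcl6, which were below the filter between populations. Cxcr5, Pdcd1 and Tox2 were found in both CD4+ groups and had 0 molecules in SE CD8+ samples, Tox2 also in EE CD8+ samples. Bcl6 was found in every group. Among 6 genes that are low in regulatory cells, Igfbp4 rose (64.6 ± 14.2 against 27.9 ± 5.14, 1.17, adjusted p 8.03e-10) and Dapl1 fell (51.5 ± 13.4 against 89.1 ± 14.1, -0.80, adjusted p 8.73e-07) in CD4+ samples. None of these 6 was called between EE and SE, and Satb1, a chromatin organiser repressed by FOXP3, was 58.2 ± 12.2 in EE and 77.8 ± 13.4 in SE CD4+ samples (-0.43, unadjusted p 0.0140, limma adjusted p 0.741).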

How the data were processed

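mRNA of CD4+ and CD8+ T cells sorted from the spleen was measured in 21 samples. Per the methods of the study and the submitters' notes, the authors trimmed reads with cutadapt, mapped them with STAR 2.4.0a to mm10, counted UMIs per gene with the Drop-seq tools and Ensembl GRCm38.83, and divided by a DESeq2 size factor. The deposited signal is this normalised count, and 1 molecule is worth 0.791 to 1.26. Whole molecules were recovered for 100% of values (tolerance 0.0001). No column was left unused.

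Groups came from the labels. limma 3.58.1 (R 4.3.3, trend) was fitted on log2(normalised count + 1) for genes with a mean above 2, with Benjamini-Hochberg adjustment over all genes tested and 0.05 as the threshold. Members below that filter were read from a fit without it. Fold differences on this scale understate those of scarce genes. edgeR 4.0.16 and DESeq2 1.42.0 were run on the recovered molecules as alternatives. The test of populations used all 21 samples and those of environments only the samples of a population. Exact permutation tests of levels used SciPy 1.17.1. Sign permutations within mice and permutations of 100000 resamples used NumPy 2.4.6. The fits were tested on simulated counts.

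The same animal number and environment in the labels was taken to mark the same mouse. Deviations of the 2 samples of a mouse correlated by 0.0140 on average, which is too small to check this pairing. The regulatory genes, the marker and pathway lists and the tests were chosen with earlier results of these data known. Besides all 8 members, the text names from each list the 3 genes with the lowest p between populations and the 2 with the lowest p between environments in CD4+ samples, those called, and the 5 genes most like the members, at most. Some are left out for brevity. Swap70, Gpr83, Ikzf4, Itgb8, Klrg1, Socs2, Ccr8, Entpd1, Prdm1, Penk, Cxcr5, Pdcd1, Tox2, Bcl6, Klrd1, Lyz2, Csf1r and Fcer1g were named after their values were seen. Relations with Foxp3 are given with the p adjusted over all genes and not over the 7 relations. Alternatives covered the pseudocount (0.5), the filter (none, or a mean above 10), scaling to the same total, sample weights, all samples in the fit, blocks and leaving out each sample.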

Additional observations from a re-analysis of the deposited data

Results flagged for a closer look

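In 3 of the 29 groups of 4 to 6 samples tested for an isolated value, the highest sample stood apart by Dixon's criterion; chance flags about 1 in 20 groups of continuous values. All 3 were CD8+ groups in which every other sample was at 0. A single value above 0 always meets the criterion there, so that rate does not hold for them. Foxp3 was 0.971 in the CD8+ EE sample of mouse 4, which is 1 molecule. Ctla4 was 0.961 in the CD8+ SE sample of mouse 6, also 1 molecule, and Capg was 5.77 in that same sample, or 6 molecules. The Capg value sets the top of the CD8+ range.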

How the results depend on the processing

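Of 1001 alternative values of 62 results, 880 kept the direction and the side of the threshold, 71 changed sign, 24 moved by more than the allowed margin, 20 newly passed the threshold and 6 no longer did. Between populations, 216 genes were called at a mean above 10, where no member was called (0), because fewer genes are tested and Ctla4 and Capg fall below it. The number of called members was 4 without the filter and 4 with edgeR, and 2 to 4 when each sample was left out (4 without SE mouse 5 of the CD4+ group). Between environments in CD4+ samples 0 genes were called with a pseudocount of 0.5, 3 without the filter, 0 at a mean above 10, 2 with edgeR, 0 with all 21 samples in the fit, and 0 to 3 when each sample was left out; in CD8+ samples the counts were 3 without the filter and 0 to 3. None of these was a member.

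The fit with animal numbers as a replicate block also leaves out the samples with no partner, EE mouse 2 in CD4+ and EE mice 4 and 5 in CD8+ samples. It called 0 genes in CD4+ samples, as did the fit without EE mouse 2 and with no block, and 3 in CD8+ samples. The EE minus SE log2 difference in CD4+ samples became -0.10 for Il2ra, -0.15 for Ikzf2 and -0.079 for Ctla4, and in CD8+ samples -0.44 for Ikzf2. The CD4+ values equal those without EE mouse 2, so the changes of sign there come with the removal of that sample. The numbers name different mice in EE and SE: deviations of samples with the same number correlated by 0.0083 in CD4+ and 0.0052 in CD8+ samples on average. With the mouse as a replicate block 358 genes were called between populations, 2 of them members, and no member's call changed.

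The sign of the environment difference in CD4+ samples changed with the setting for every member except Capg, and the cause was not tested. The EE minus SE log2 difference in CD4+ samples was -0.15 for Foxp3, -0.11 for Ctla4, -0.00028 for Tnfrsf4 and 0.12 for Tnfrsf18 with edgeR, -0.13, -0.10 and 0.14 for Foxp3, Ctla4 and Tnfrsf18 with DESeq2, and 0.017 for Icos with sample weights. When each sample was left out it ran from -0.051 to 0.71 for Foxp3, -0.10 to 0.64 for Il2ra, -0.32 to 0.63 for Ikzf2, -0.18 to 0.28 for Ctla4, -0.35 to 0.67 for Tnfrsf4, -0.27 to 0.31 for Tnfrsf18 and -0.20 to 0.14 for Icos. The matching difference in normalised counts ran from -0.858 to 0.970 for Foxp3, -0.0118 to 1.73 for Il2ra, -1.28 to 4.58 for Ikzf2, -1.77 to 1.04 for Ctla4, -1.59 to 2.30 for Tnfrsf4, -1.11 to 4.44 for Tnfrsf18 and -2.36 to 1.47 for Icos. Ikzf2 in CD8+ samples was -0.0026 with a pseudocount of 0.5, -0.0061 with the same total in each sample and -0.32 without the haemoglobin-rich samples, and ran from -0.34 to 0.38 (log2) and from -0.878 to 1.31 (counts) when each sample was left out. Foxp3 per 100 Cd4 molecules ran from -2.74 to 1.11, and the within-mouse difference of Tnfrsf18 from -0.046 to 0.31.

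Counting error and, for some members, the spread between samples limit the comparison of environments. The members together gave 43 to 130 molecules in a CD4+ sample, Foxp3 and Il2ra at most 8 each, and the SD among CD4+ samples of an environment ran from 0.621 (Capg in SE) to 2.71 (Ikzf2 in EE) times that of counting, so that the excess over counting differed between members.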
